A study of Mus musculus with 6 samples.

Results

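Major histocompatibility complex (MHC) class I presentation was followed through 10 genes: the classical heavy chains H2-K1 and H2-D1, the non-classical heavy chains H2-Q4, H2-Q6, H2-Q7 and H2-T23, the light chain B2m, the peptide transporter subunits Tap1 and Tap2, and tapasin (Tapbp). They were found by matching the Ensembl identifiers of the deposited table to these symbols, and all 10 were present among its 16665 genes. The cells were RAW264.7, a mouse macrophage-like leukaemia line, transfected with a miR-125b mimic (3 libraries, genotype given as miR-125b overexpression) or with a preparation labelled NC (3 libraries, genotype given as miR-125b WT). Every library came from transfected cells of this line, and no age, time after transfection, dose or strand of the mimic is given in the sources used here. The labels do not say whether replicate libraries were grown as separate cultures, and p-values here therefore cover a spread that may be technical. The comparison asks what the mimic does to the RNA of these cells; miR-125b itself was not measured.

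A class I molecule is a heavy chain held together with beta-2-microglobulin around a short peptide. Peptides cut by the proteasome are pumped into the endoplasmic reticulum by the TAP1-TAP2 transporter, and tapasin holds the empty heavy chain beside the transporter until a peptide fits. Macrophages carry class I on their surface at all times and raise it in response to interferons. RAW264.7 comes from a BALB/c-background mouse, whose H2 haplotype differs from that of the C57BL/6J genome used for counting, so the heavy chain values were read against alleles of another strain. What that did to the levels was not tested.

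Values are FPKM, fragments per kilobase of gene scaled to library depth, as the authors deposited them. Library depth, recovered from the steps of low values, was 14.51 to 16.78 M fragments, and 13266 to 15470 genes were above 0, the lowest number being in NC replicate 3. That library stood apart: over 10166 tested genes it lay nearer to the mimic mean than to the mean of the other NC libraries in 65.7%, and in 5 of the 10 class I genes. The 6 macrophage markers summed to 6208 to 6455 FPKM in mimic libraries and 6959 to 8412 FPKM in NC libraries. Lyz2 made up most of that sum, at 5720 to 5998 FPKM in mimic and 6515 to 7838 FPKM in NC libraries. Log2 fold changes, mimic minus NC, were -0.31 for Lyz2, -0.32 for Cd68 and -0.16 for Itgam. They were -0.072 for Adgre1, -0.025 for Fcgr1 and -0.0067 for Csf1r. All 6 markers were below 0 as deposited, where 4438 of 10166 tested genes were. With equal FPKM totals 3 of 6 were, where 3238 of 10166 tested genes were. Of the 4 dendritic cell markers 1 was tested, and Flt3 had no row. The list summed to 1.33 to 2.00 FPKM in mimic and 1.30 to 3.70 FPKM in NC libraries. T cell, B cell, fibroblast and endothelial markers summed to at most 0.102 FPKM in any mimic library and 0.484 FPKM in any NC library. The part of these markers in the results below was not tested. In bulk RNA, fewer cells of a type and less RNA per cell cannot be told apart.

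The heavy chains share more than a name, and their control regions show it. RefSeq promoters (GRCm38.p6; 250 bases before to 50 after each start) were available for 9 of the 10 genes, Tap2 being the exception. Class I promoters are known for a kappaB element in enhancer A, an interferon response element, and X and Y boxes. The X and Y boxes are read by RFX, CREB/ATF and NF-Y together with the coactivator NLRC5, CREB/ATF at the X2 part of the X box. Letters for the RFX site were not searched. The kappaB consensus and the letters TTTCNNTTC (interferon response core), TGACG (X2 core) and ATTGG (Y box) were searched on both strands; kappaB matches on opposite strands overlap. The windows are shown because 5 heavy chains carry a kappaB match, the interferon response core and ATTGG in the same order. Capitals mark the matches.
H2-K1 (chr17:34000330-34000463, minus strand): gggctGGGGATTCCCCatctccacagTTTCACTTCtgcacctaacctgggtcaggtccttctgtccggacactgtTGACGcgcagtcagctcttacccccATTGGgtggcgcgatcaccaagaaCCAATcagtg
H2-D1 (chr17:35262918-35263050, plus strand): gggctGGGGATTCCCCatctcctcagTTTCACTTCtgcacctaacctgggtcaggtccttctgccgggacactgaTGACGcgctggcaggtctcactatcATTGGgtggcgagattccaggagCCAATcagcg
H2-Q4 (chr17:35379438-35379571, plus strand): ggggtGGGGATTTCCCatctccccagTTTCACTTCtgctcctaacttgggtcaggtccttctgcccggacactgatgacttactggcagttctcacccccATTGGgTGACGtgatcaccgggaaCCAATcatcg
H2-Q6 (chr17:35424672-35424804, plus strand): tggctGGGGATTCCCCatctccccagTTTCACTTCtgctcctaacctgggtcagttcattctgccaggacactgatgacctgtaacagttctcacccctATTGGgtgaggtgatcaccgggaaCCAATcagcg
H2-Q7 (chr17:35439017-35439148, plus strand): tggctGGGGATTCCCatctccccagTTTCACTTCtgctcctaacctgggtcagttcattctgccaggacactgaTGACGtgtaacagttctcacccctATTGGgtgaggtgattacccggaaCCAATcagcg
B2m (chr2:122147604-122147643, plus strand): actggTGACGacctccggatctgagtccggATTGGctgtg

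A kappaB match was found in 6 of the 9 members with a promoter entry, the 5 heavy chains printed and B2m (there outside the stretch shown), against 8.46% of 32851 mouse promoters. The interferon response core was found in the 5 heavy chains printed, against 7.52% of all promoters. TGACG was present in 6 of the 9 (20.8% of all promoters), and ATTGG in all 9 (37.4%). H2-K1, H2-D1, H2-Q4 and H2-Q7 held all 4 motifs, as did 16 promoter entries in all. In the H2-K1, H2-D1 and H2-Q7 windows TGACG lay before the first ATTGG, and in the H2-Q4 window it lay after it. A match to these letters alone does not show an X2 box. In H2-Q6 the X2 letters had no match, and in H2-T23 ATTGG was the motif matched. These windows are the reference strain's sequence, and no binding was measured.

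No class I gene passed the test. With limma on log2(FPKM + 1), 0 of the 10 members had an adjusted p under 0.05, and 0 of 10166 tested genes did (0%). All 10 fold changes lay below 0 as deposited, against 43.7% of all tested genes. With equal FPKM totals 9 did, H2-Q4 then standing at 0.10, against 3238 of 10166 tested genes. After quantile normalisation 9 did, B2m then standing at 0.20, against 4913 of 10166 tested genes. The members' median log2 fold change was -0.22, beside 0.041 for all tested genes. At an unadjusted p under 0.05 there was 1 member, H2-Q7, and 1344 genes in all, lower ones making up 5.26% and higher ones 7.96% of those tested. Limma voom on recovered fragments also called 0 genes, with 1 member and 1392 genes at an unadjusted p under 0.05. H2-Q7 was also the member whose mimic values all lay below its NC values, a pattern held by 7.49% of tested genes, while 12.6% had the opposite one.

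**Figure D1:**
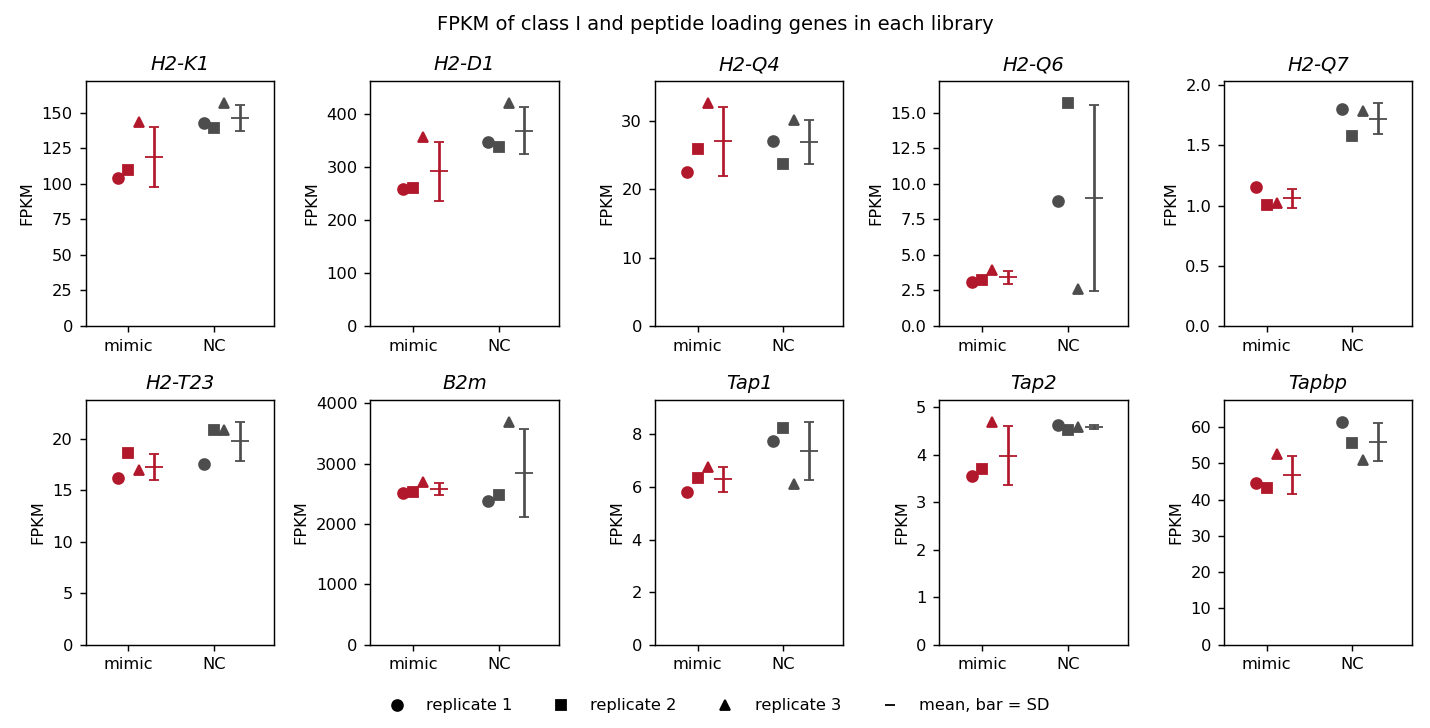
FPKM (vertical axes, each from 0) of the 10 genes in the 3 mimic libraries and the 3 NC libraries; marker shape gives the replicate and bars give the mean and SD. The groups are apart in H2-Q7 and overlap in the other 9 genes, and replicate 3 of the mimic is the highest mimic library in all but H2-Q7 and H2-T23.

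**Figure D2:**
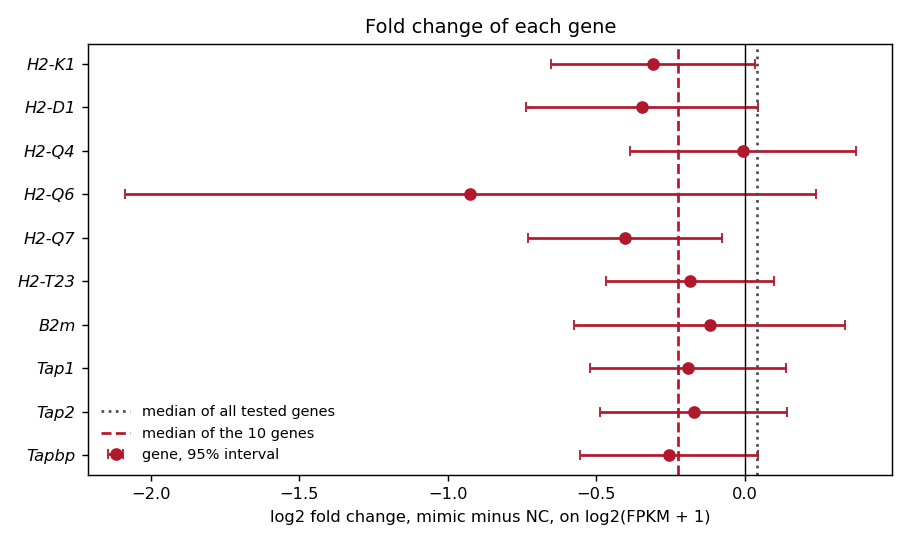
Log2 fold change, mimic minus NC, of each gene with its 95% interval from limma. The interval of H2-Q7 lies below 0, those of the other 9 genes include 0, and the widest belongs to H2-Q6.

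H2-K1 and H2-D1 are the classical heavy chains that show peptides to CD8 T cells. H2-K1 (ENSMUSG00000061232; chromosome 17, 33996017 to 34000347, minus strand) read 104, 110 and 143 FPKM in mimic libraries, against 143, 139 and 157 FPKM in NC libraries. H2-D1 (ENSMUSG00000073411; chromosome 17, 35262730 to 35267499, plus strand) read 259, 260 and 356 FPKM in mimic libraries, against 347, 339 and 420 FPKM in NC libraries. In each gene mimic replicates 1 and 2 lay below every NC library and mimic replicate 3 lay within the NC range. H2-K1 averaged 119 ± 21.2 FPKM with the mimic and 146 ± 9.17 FPKM in NC (SD, n = 3 each), a log2 fold change of -0.31 (SE 0.15). H2-D1 averaged 292 ± 55.7 FPKM with the mimic and 369 ± 45.0 FPKM in NC, a log2 fold change of -0.35 (SE 0.17). The limma adjusted p was 0.411 and 0.417, and the 95% intervals reached from -0.65 to 0.036 and from -0.74 to 0.044.

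The classical pair kept a steady proportion. H2-D1 stood at 2.45 ± 0.0700 times H2-K1 in mimic libraries and 2.52 ± 0.147 times in NC libraries (SD, n = 3 each). Together they made up 88.4% to 90.2% of the summed heavy chain FPKM in mimic libraries and 88.6% to 91.2% in NC libraries. That sum was 406, 419 and 554 FPKM with the mimic, against 545, 540 and 632 FPKM in NC. Mimic replicate 3 again lay within the NC range. The labels do not pair the libraries. With same-numbered libraries taken as pairs from their correlations in these data, H2-K1 and H2-D1 were also fitted with the replicate as a block. The pairs came from the values tested, so p-values of this fit are not those of a planned paired test. In it limma's unadjusted p was 0.0424 for H2-K1 and 0.0202 for H2-D1, with adjusted p of 0.289 and 0.266. With H2-Q7 they were the 3 members under an unadjusted p of 0.05 in that fit, where 1682 genes were, the lower ones making up 7.28% of those tested. Without replicate 3 of either group, an alternative chosen after the values were seen, H2-K1 (-0.40, limma adjusted p = 0.00243) and H2-D1 (-0.40, limma adjusted p = 0.00173) passed, in a fit where 19.9% of all genes passed as lower and 23.1% as higher.

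The non-classical heavy chains H2-Q4, H2-Q6 and H2-Q7 belong to the Qa region, and H2-T23 encodes Qa-1, which presents leader peptides of other class I chains to natural killer cell receptors. H2-Q7 (ENSMUSG00000060550; chromosome 17, 35439155 to 35443773) read 1.15, 1.00 and 1.02 FPKM in mimic libraries, against 1.80, 1.58 and 1.79 FPKM in NC libraries. By FPKM it was the lowest member in all 6 libraries, though in NC replicate 3 H2-Q6 had fewer fragments (79). H2-Q7 rested on 67 to 71 fragments with the mimic and 112 to 120 fragments in NC. Its log2 fold change was -0.40 on log2(FPKM + 1) (SE 0.14; limma unadjusted p = 0.0221, adjusted p = 0.333), and -0.70 by voom, which adds far less to low values. The 95% interval from limma was -0.73 to -0.076.

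H2-Q6 (ENSMUSG00000073409; chromosome 17, 35424850 to 35430055) had the most negative fold change and the widest spread. It read 3.12, 3.21 and 3.93 FPKM in mimic libraries, against 8.80, 15.7 and 2.58 FPKM in NC libraries, so NC replicate 3 lay below every mimic library and the other NC libraries above. Its log2 fold change was -0.92 (SE 0.50, limma adjusted p = 0.457), with an interval of -2.09 to 0.24. Without NC replicate 2, its highest library, it stood at -0.43 (limma adjusted p = 0.810). Without NC replicate 3 it stood at -1.54 (limma adjusted p = 0.00795) and was the member that passed; in that fit 12.2% of all genes passed as lower and 11.6% as higher. It passed also without NC replicate 3 and with the trend on length and GC removed (-1.22, adjusted p = 0.0455), where 2.79% of genes passed as lower and 1.01% as higher.

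H2-Q4 (ENSMUSG00000035929; chromosome 17, 35379617 to 35385290) gave no direction. It read 22.6, 25.9 and 32.6 FPKM in mimic libraries, against 27.0, 23.6 and 30.1 FPKM in NC libraries, and replicate 3 was the highest library of each group. The log2 fold change of -0.0052 (SE 0.16) had an interval of -0.39 to 0.38 and turned positive in 8 of 20 alternative settings. H2-T23 (ENSMUSG00000067212; chromosome 17, 36029773 to 36032855, minus strand) read 16.2, 18.6 and 16.9 FPKM in mimic libraries, against 17.6, 20.9 and 20.8 FPKM in NC libraries. Mimic replicate 2 lay within the NC range and the other mimic libraries below it (log2 fold change -0.18, SE 0.12, limma adjusted p = 0.523).

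Values of these heavy chains are uncertain because the genes resemble each other. Coding sequences were 95.4% identical between H2-Q6 and H2-Q7, and 81.2% between H2-D1 and H2-T23, the most distant pair. Of all 50-base stretches in the longest transcript, 32.0% for H2-Q6 and 28.4% for H2-Q7 also occur exactly in transcripts of other genes. That share was 22% for H2-Q4, 15.0% for H2-T23, 14.3% for H2-D1 and 8.11% for H2-K1, and no such stretch was found for B2m. The sources used here do not give how the counting divided shared fragments. H2-Q4 also overlaps the antisense gene Gm11131 over 676 bases of gene span, introns included, and the strand setting is not given.

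B2m, the invariant light chain (ENSMUSG00000060802; chromosome 2, 122147686 to 122153083), was the most abundant member and the one outside chromosome 17. It read 2512, 2525 and 2693 FPKM in mimic libraries, against 2386, 2475 and 3692 FPKM in NC libraries. NC replicate 3 was far above the other 5 libraries, and the mimic values lay within the NC range. The log2 fold change was -0.12 (SE 0.19, limma adjusted p = 0.811); without NC replicate 3 it was 0.084 (adjusted p = 0.497). Against the summed heavy chains, B2m stood at 6.19, 6.03 and 4.86 times in mimic libraries and at 4.38, 4.59 and 5.84 times in NC libraries. In replicates 1 and 2 this ratio was higher with the mimic, and in replicate 3 it was higher in NC.

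The transporter and tapasin pointed the same way as the classical chains without passing. Tap1 (ENSMUSG00000037321; chromosome 17, 34187553 to 34197225) read 5.80, 6.34 and 6.75 FPKM in mimic libraries, against 7.75, 8.24 and 6.12 FPKM in NC libraries. NC replicate 3 was the low NC library and lay within the mimic range. Its log2 fold change was -0.19 (SE 0.14, limma adjusted p = 0.566). Tap2 (ENSMUSG00000024339; chromosome 17, 34203527 to 34216321) read 3.55, 3.70 and 4.69 FPKM in mimic libraries, against 4.63, 4.53 and 4.59 FPKM in NC libraries. Its NC libraries were close together, with an SD of 0.0498 FPKM, and mimic replicate 3 lay above them. The log2 fold change was -0.17 (SE 0.13, limma adjusted p = 0.593). The subunits form a heterodimer, and Tap1 stood at 1.60 ± 0.141 times Tap2 in mimic libraries and 1.61 ± 0.249 times in NC libraries (SD, n = 3 each).

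Tapbp (ENSMUSG00000024308; chromosome 17, 33915899 to 33929292) read 44.7, 43.1 and 52.7 FPKM in mimic libraries, against 61.5, 55.5 and 51.0 FPKM in NC libraries. Mimic replicates 1 and 2 lay below every NC library, and mimic replicate 3 above NC replicate 3. The log2 fold change was -0.25 (SE 0.13, limma adjusted p = 0.433). Without replicate 3 of either group Tapbp (-0.40, limma adjusted p = 0.00451), Tap1 (-0.35, adjusted p = 0.0170) and Tap2 (-0.27, adjusted p = 0.0484) passed, as did H2-Q6 (-1.62, adjusted p = 0.00309), which with the classical pair made 6 of the 10 members in that fit, where 19.9% of all genes passed as lower and 23.1% as higher. With array weights, which count a library less the more it departs from the fit, 7 members passed as lower: H2-K1, H2-D1, H2-Q6, H2-Q7 (-0.35, limma adjusted p = 0.0213), Tap1, Tap2 and Tapbp. In that fit 22% of all genes passed as lower and 25.3% as higher. Tap1 overlaps the immunoproteasome gene Psmb9 on the other strand over 212 bases, Tap2 the antisense gene Gm15821 over 3148 bases, and Tapbp shares 3422 bases with Zbtb22 on its own strand. These are overlaps of whole gene spans, introns included. Overlap of exons was not computed, so the values of these members are uncertain by an unknown amount.

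Levels per length followed a nearly fixed order. In each of the 6 libraries B2m was followed by H2-D1, H2-K1, Tapbp, H2-Q4 and H2-T23, and H2-Q7 came last. The ranges of these genes over all 6 libraries did not overlap between neighbours in that order, H2-Q4 spanning 22.6 to 32.6 FPKM and H2-T23 16.2 to 20.9 FPKM. The order between them was taken up by Tap1, Tap2 and H2-Q6. H2-Q6 ranked above Tap1 in NC replicates 1 and 2 and below Tap2 in the other 4 libraries, and its range of 2.58 to 15.7 FPKM covers that of Tap1 (5.80 to 8.24 FPKM) and Tap2 (3.55 to 4.69 FPKM).

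Direct sites for the microRNA were looked for in the members. The mature miR-125b-5p is printed with its seed, bases 2 to 8, in capitals.
mmu-miR-125b-5p (RefSeq, GRCm38.p6): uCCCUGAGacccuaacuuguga
In the longest annotated 3′ end region of each gene (GENCODE M21, GRCm38), 2 of the 10 members held a match to at least 7 bases, shown with capitals on the match and 10 bases on either side.
Tapbp (chr17:33929061-33929068, plus strand, 8mer): ttctagagacCTCAGGGAcagcccacag
H2-Q6 (chr17:35429880-35429886, plus strand, 7mer-m8): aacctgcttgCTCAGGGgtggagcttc
A match to at least 7 bases was held by 24% of tested genes with such a region: the best match was an 8mer in 5.89%, a 7mer-m8 in 10.7% and a 7mer-A1 (TCAGGGA) in 7.38%. The other 8 members, H2-K1, H2-D1 and H2-Q7 among them, held no match of even 6 bases, as did 61.8% of tested genes. A match is a description of the reference sequence and not a measured site.

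The 9 members on chromosome 17 had transcripts richer in GC than most genes, from 52.1% to 57.1%, and B2m on chromosome 2 had 41.2%. The median over the 10 members was 54.7% and the median exon length 2914 bases, against 49.0% and 4252 bases over all tested genes. As an alternative, the trend of log2 values on exon length and GC was removed from each library. The members' median was then -0.13, with 9 of 10 below 0, beside 0.00073 for all genes. Without NC replicate 3 as well it was 0.013, with 4 of 10 below 0, beside 0.013 for all genes, with 4818 of 10128 below 0. H2-K1 (0.026), H2-D1 (0.080), H2-Q4 (0.37), H2-T23 (0.14), Tap2 (0.14) and Tapbp (0.00045) then stood above 0. H2-Q6 (-1.22), H2-Q7 (-0.21), B2m (-0.12) and Tap1 (-0.076) stayed below 0 in that setting.

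**Figure D3:**
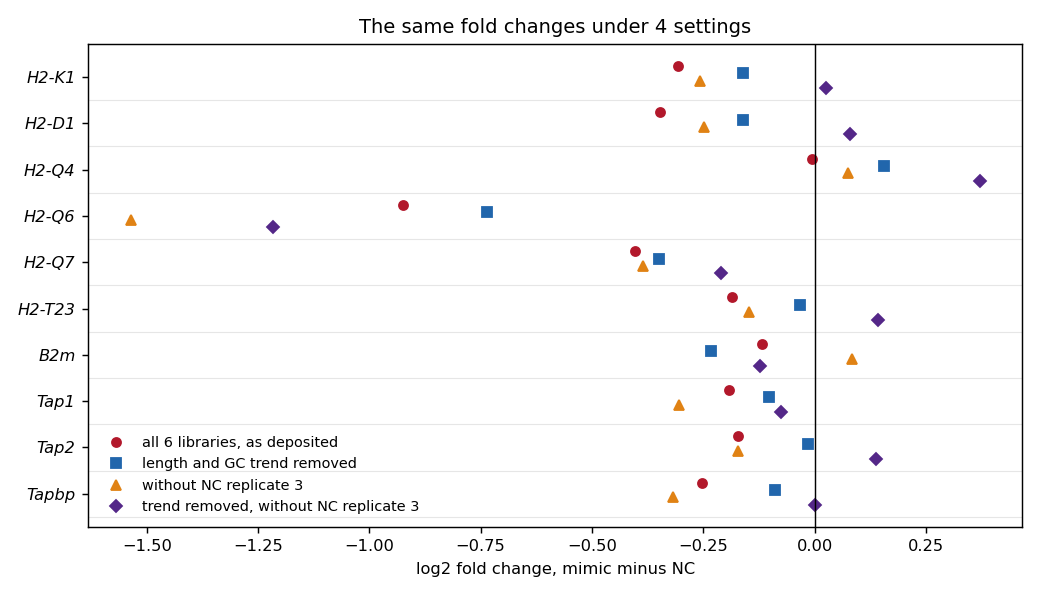
Log2 fold change, mimic minus NC, of the 10 genes as deposited, with the length and GC trend removed, without NC replicate 3, and with both. H2-Q6, H2-Q7 and Tap1 are below 0 in all 4 settings, while H2-K1, H2-D1, H2-Q4, H2-T23, Tap2 and Tapbp lie above 0 when both are applied.

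The 9 members on chromosome 17 lie between Tapbp and H2-T23, and their neighbours are a set chosen after the values were seen. Of 71 other tested genes in that stretch 59 were below 0, with a median log2 fold change of -0.26, and 0 passed limma. Under the other scalings 50 to 63 were below 0. Without NC replicate 3 alone 66 of 71 were, with a median of -0.39. The members' median was then -0.25 and that of all tested genes -0.0064. The 71 include 4 class I heavy chains (H2-Q1, H2-Q2, H2-Q10 and H2-T24) and 5 other genes (Psmb8, Psmb9, H2-DMa, H2-Oa and H2-Ob) counted again in the pathway lists; of the 62 without them 50 were below 0 (median -0.26). The rest of chromosome 17 had 226 of 443 below 0 and a median of -0.0082. In 17 of the 71 all mimic values lay below all NC values, against 7.49% of all tested genes. Neighbours with the smallest p included Rnf5, a ubiquitin ligase of the endoplasmic reticulum, at 3.69 ± 0.598 FPKM with the mimic and 6.77 ± 0.972 FPKM in NC (SD, n = 3 each; log2 fold change -0.73, limma adjusted p = 0.332), and Ppt2, a lysosomal thioesterase, at -0.66. The median GC of the neighbours was 56.0%. With the length and GC trend removed their median was -0.11, with 50 of 71 below 0. Without NC replicate 3 as well it was -0.10, with 51 of 71 below 0, where the members' median was 0.013 with 4 of 10 below 0. All tested genes then had a median of 0.013, with 4818 of 10128 below 0. A difference between the members and these neighbours was not tested.

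**Figure D4:**
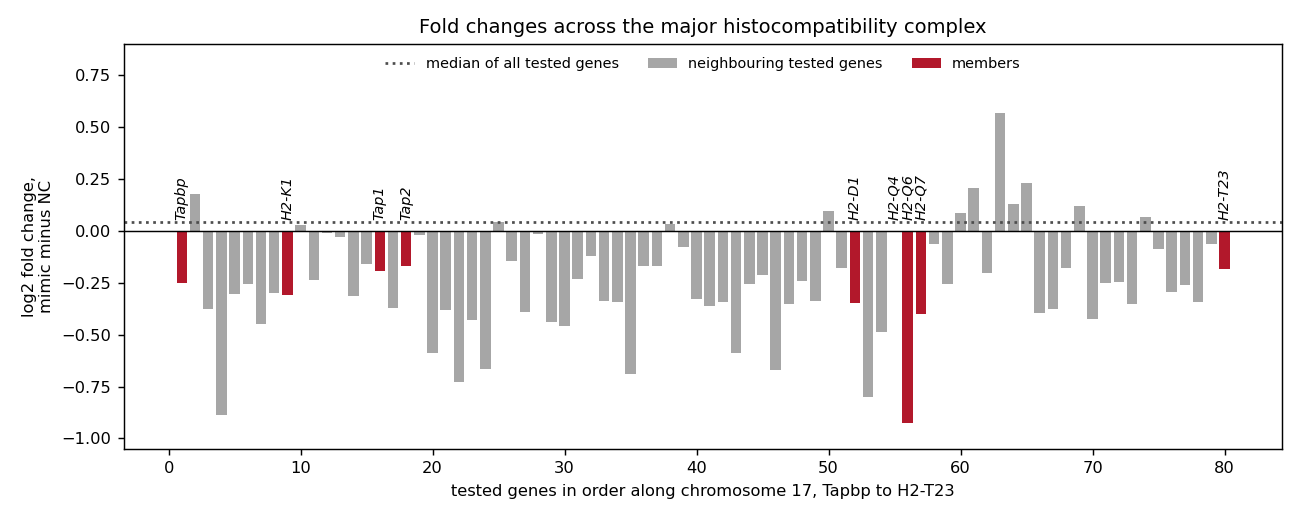
Log2 fold change, mimic minus NC (vertical axis), of tested genes in their order along chromosome 17 from Tapbp to H2-T23; red bars (members) are the 9 class I and peptide loading genes there, grey bars the 71 other genes, 4 of which are also class I heavy chains, and the dotted line is the median of all tested genes. Most bars of either colour lie below 0, with 59 of the 71 grey ones there.

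The rest of the pathway was read from the same fit, from lists chosen with earlier results of these data known. Of 65 tested genes in 9 lists limma called 0, and so did voom. Each had 8 genes with an unadjusted p below 0.05, and by limma 3 of them were above 0. The median was -0.045. All 6 other tested class I heavy chains were below 0 (median -0.30), and 5 of 6 with equal FPKM totals or with the length and GC trend removed. H2-T22 read 7.95, 8.08 and 7.03 FPKM in mimic libraries, against 15.0, 14.3 and 8.92 FPKM in NC libraries (log2 fold change -0.63, SE 0.20, limma adjusted p = 0.332). H2-Q1 read 2.20, 1.73 and 4.34 FPKM with the mimic, against 6.08, 5.22 and 4.59 FPKM in NC (-0.80, SE 0.25, adjusted p = 0.332). In each the groups did not overlap. Over the 65 genes of the lists 7 were apart as lower and 6 as higher, where 7.49% and 12.6% of all tested genes were. H2-Q2 stood at -0.49 and H2-M3, which presents formylated peptides, at -0.12. Without NC replicate 3 H2-T22 (-0.85, limma adjusted p = 0.00538) and H2-Q2 (-0.91, adjusted p = 0.0169) passed, and H2-M3 stood at -0.019. Over the lists 15 of 65 genes passed in that fit, 11 as lower and 4 as higher, against 12.2% and 11.6% of all tested genes.

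Peptide supply gave 10 of 14 genes below 0 (median -0.17), and 9 to 11 under the other scalings. Psmb8, the immunoproteasome subunit encoded between Tap1 and Tap2, read 7.0, 6.73 and 7.27 FPKM in mimic libraries, against 8.80, 10.1 and 9.21 FPKM in NC libraries (log2 fold change -0.37, SE 0.11, limma adjusted p = 0.332), with no overlap. The activator subunit Psme2 stood at -0.24, also with no overlap, the constitutive subunit Psmb6 at -0.39 and Psme3, of the nuclear activator, at 0.21. Folding and editing in the endoplasmic reticulum was even, with 4 of 8 genes on each side (median 0.0030), though 2 to 6 genes were below 0 under the other scalings. Erap1, the aminopeptidase that trims peptides to class I length, read 13.9, 13.3 and 11.9 FPKM with the mimic, against 10.0, 9.49 and 9.82 FPKM in NC (0.38, SE 0.11, adjusted p = 0.332), with no overlap. Tapbpl, the tapasin-related editor, stood at 0.56 (SE 0.26), the disulfide isomerase P4hb at -0.29 and calreticulin (Calr) at -0.21. With NC replicate 3 left out, Psmb8 (-0.38, limma adjusted p = 0.0337), Psmb6 (-0.61, adjusted p = 0.0203) and Erap1 (0.38, adjusted p = 0.0337) passed, and Tapbpl stood at 0.31. Psme1 (-0.65), Thop1 (-0.58), Psmb9 (-0.40) and Tpp2 (0.61) of peptide supply, named after their values were seen, passed too. Of all genes 12.2% passed as lower and 11.6% as higher in that fit.

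Regulators of class I transcription were split, 9 of 16 above 0 (median 0.047), but 11 of 16 with equal FPKM totals and 5 of 16 once the length and GC trend was taken out. Of all tested genes, 6928 of 10166 were above 0 with equal totals and 5077 of 10128 with the trend removed. Irf1, an interferon-induced activator of class I promoters, read 0.853, 1.23 and 1.01 FPKM in mimic libraries, against 1.45, 1.81 and 1.64 FPKM in NC libraries (log2 fold change -0.38, SE 0.15, limma adjusted p = 0.364). The X box factor Rfx5 stood at 0.26 (7.36 ± 0.287 FPKM with the mimic and 5.96 ± 0.322 FPKM in NC; SD, n = 3 each), Creb1 at 0.27 and the NF-kB subunit Rela at -0.25. The class I coactivator Nlrc5, named after its values were seen, read 3.54, 4.16 and 4.03 FPKM with the mimic, against 3.44, 3.39 and 3.07 FPKM in NC. These 5 were the regulators whose groups did not overlap, 3 of 16 higher and 2 of 16 lower with the mimic, against 12.6% and 7.49% of all tested genes. Irf8, also named after its values were seen, passed without NC replicate 3 (-0.41, limma adjusted p = 0.0258), where 12.2% of all genes passed as lower.

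All 7 interferon receptor and kinase genes were above 0 (median 0.13), and 6 of 7 after median ratio scaling or quantile normalisation. Jak2, a kinase of the interferon gamma receptor, read 13.6, 13.6 and 12.8 FPKM in mimic libraries, against 9.57, 9.10 and 10.7 FPKM in NC libraries (log2 fold change 0.41, SE 0.11, limma adjusted p = 0.332), with no overlap. Ifngr1 stood at 0.33, Ifnar1 at 0.24 (also with no overlap) and Jak1 at 0.13. Of the 13 interferon response readouts 4 were tested. Irf7, an interferon-induced factor, read 6.45, 6.44 and 6.56 FPKM with the mimic, against 15.4, 15.2 and 6.99 FPKM in NC (-0.78, SE 0.27, limma adjusted p = 0.337). Its groups did not overlap, though NC replicate 3 lay close to the mimic libraries. Oas1a stood at -0.24, Usp18 at 0.060 and Cxcl10 at -0.00066. After leaving out NC replicate 3, Irf7 (-1.12, limma adjusted p = 0.00420), Oas1a (-0.56, adjusted p = 0.0152) and Jak2 (0.47, adjusted p = 0.0121) passed, where 12.2% of all genes passed as lower and 11.6% as higher. Usp18 then stood at -0.19, Cxcl10 at -0.31, and 4 of the 7 receptor and kinase genes were above 0.

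Of 11 class II genes 5 were tested and all 5 were below 0 (median -0.12). With equal FPKM totals 3 of 5 were, where 3238 of 10166 tested genes were. Cd74, the invariant chain, averaged 333 ± 59.0 FPKM with the mimic and 411 ± 87.2 FPKM in NC (SD, n = 3 each; log2 fold change -0.30, limma adjusted p = 0.537), H2-DMa stood at -0.32 (-0.48 for each without NC replicate 3), cathepsin S (Ctss) at -0.12 and H2-Ob at -0.021. H2-Aa and Ciita had no row in the table. Among class I-like genes outside the complex, Fcgrt, the neonatal Fc receptor chain that also pairs with beta-2-microglobulin, stood at -0.29, Mr1 at 0.29 and Hfe at -0.045. Pirb, a myeloid receptor that binds class I, was in the table at 0 to 0.283 FPKM over the 6 libraries and was not tested. Lilrb4a and Lilr4b, immunoglobulin-like myeloid receptors listed with it although class I is not an established ligand of theirs, stood at 0.29 and 0.17. When NC replicate 3 was left out, Fcgrt (-0.54, limma adjusted p = 0.0253) and Lilrb4a (0.56, adjusted p = 0.00724) passed, and Mr1 stood at -0.16. That fit passed 12.2% of all genes as lower and 11.6% as higher.

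**Figure D5:**
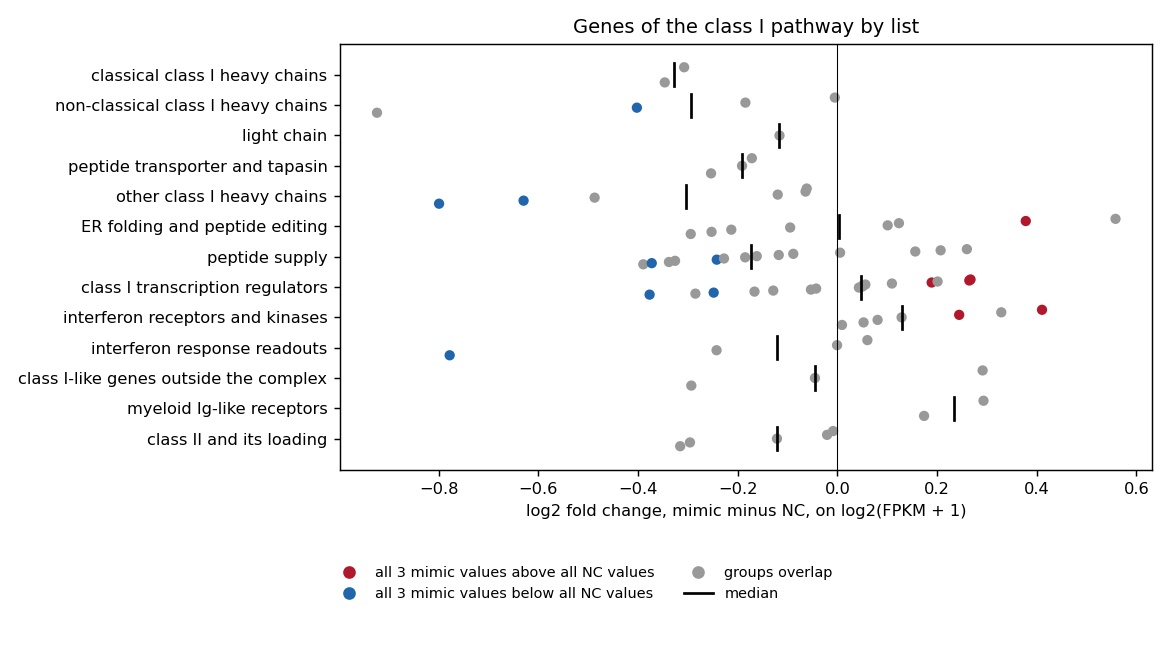
Log2 fold change, mimic minus NC, of each tested gene by list, with black bars for list medians and colour for whether the 3 mimic and 3 NC values overlap. As deposited, the heavy chains lie below 0, the 7 interferon receptors and kinases above it, and the regulators on either side; 4 of the 7 were above 0 without NC replicate 3, and 6 after median ratio scaling.

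Among all other tested genes, those whose centred log2 profile over the 6 libraries lay nearest to the members' mean profile were Arpc4, an actin-nucleating complex subunit (root mean square distance 0.0259 log2 units), Itm2c (0.0370), the pore former Gsdmd (0.0381), Bri3bp (0.0397) and Plpp2 (0.0400). The members' mean profile itself was -0.25, -0.19 and 0.0048 in mimic libraries and 0.15, 0.20 and 0.085 in NC libraries, in log2 units around each gene's mean. H2-Q6 spread most among the members, at 0.69, 1.46 and -0.76 in NC libraries. The NC part of the mean profile, and with it the nearest genes, leans on that gene. The check genes were not level either: Actb stood at -0.35 (limma adjusted p = 0.436), Gapdh, which has many pseudogenes and is uncertain, at -0.61 (adjusted p = 0.348), Tbp at 0.33 (adjusted p = 0.360) and Hprt at 0.044 (adjusted p = 0.920).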

How the data were processed

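The authors deposited FPKM values, 1 column for each of 6 libraries. The submitters' processing notes name mm10, HISAT2, fastp and DESeq2. No version, counting tool, annotation or strand setting is given there or in the labels. Per the labels, libraries were made with a SMARTer mRNA kit from total RNA. Symbols, exon lengths and transcripts came from GENCODE M21 (GRCm38, the assembly mm10 names), which held 16582 of 16665 identifiers.

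The 10166 genes averaging 1 FPKM or more, all 10 members among them, entered a two-sided limma fit (version 3.58.1, R 4.3.3) of log2(FPKM + 1) with trended variance, Benjamini-Hochberg adjustment over all tested genes and a threshold of 0.05. This scale understates changes of low genes. Depth was recovered from exon lengths and low values (up to 20 fragments), of which 98.7% to 99.1% were whole within 0.1 fragment. Fragments are not independent molecules where copies were amplified.

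The members and lists were chosen with earlier results of these data known. Named genes are all members, up to 4 of the smallest p in each list, the 5 nearest profiles and the checks. Psme1, Thop1, Psmb9, Tpp2, Irf8 and Nlrc5 were added after the values were seen. Same-numbered libraries deviated together from their group means, with correlations of 0.29, 0.18 and 0.34 for numbers 1, 2 and 3. These were taken over tested genes, which are not independent. Mimic 1 and NC 2 correlated at 0.31, above the values for numbers 1 and 2. The numbers were taken as pairs from these correlations, not from the labels. P-values with the replicate block are therefore not those of a planned paired test. Alternatives covered pseudocount, filter, scaling, array weights (gene-by-gene method, since the default did not converge), the replicate block, voom, a length and GC trend (splines with 4 degrees of freedom each) and each library left out.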

Additional observations from a re-analysis of the deposited data

How the results depend on the processing

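Over 20 alternatives, 166 of 198 member values kept their direction and side of the threshold. The replicate block changed no call (0 members, 0 genes and 0 pathway genes; members' median -0.22), nor did its use with the length and GC trend removed. Array weights, which gave NC replicate 3 a weight of 0.0908 and mimic replicate 3 one of 0.339, gave 7 members, 4808 genes and 33 pathway genes past the threshold and a members' median of -0.35. Leaving out replicate 3 of both groups, added after the values were seen, gave 6, 4377 and 30, with a median of -0.36. Without NC replicate 3 and with the trend removed the numbers were 1, 385 and 3, with a median of 0.013 for the members and 0.013 for all tested genes. Equal FPKM totals moved the members' median to -0.12, and that of all tested genes from 0.041 to 0.13. With 1 library left out the counts ranged from 0 to 1 member, 0 to 2412 genes and 0 to 15 pathway genes, the higher ends without NC replicate 3, and the median from -0.31 to -0.18.

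Reversals were those of H2-Q4 (0.10 with equal totals, 0.16 with the trend removed, with or without the replicate block, 0.37 with the trend removed and without NC replicate 3, 0.11, 0.017, 0.00071 and 0.076 without mimic replicate 1, mimic replicate 2, NC replicate 1 and NC replicate 3, in a leave-one-out range of -0.14 to 0.11), of B2m (0.20 by quantile normalisation, 0.043 with array weights, 0.052 without replicate 3 of both groups, and 0.084 without NC replicate 3 in a leave-one-out range of -0.23 to 0.084) and, with the trend removed and without NC replicate 3, of H2-K1 (0.026), H2-D1 (0.080), H2-T23 (0.14), Tap2 (0.14) and Tapbp (0.00045). The cause was not tested. A stricter filter (mean FPKM at least 5) left out H2-Q7 and Tap2. Depth limits H2-Q7 and H2-Q6 most, which rested on as few as 67 and 79 fragments.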
